A study of Mus musculus with 9 samples.

Results

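The Cyp2d genes encode a subfamily of cytochrome P450, heme enzymes of the endoplasmic reticulum that oxidise drugs, steroids and other small lipophilic molecules. The 9 rows of the deposited liver table whose gene name is Cyp2d9, Cyp2d10, Cyp2d11, Cyp2d12, Cyp2d13, Cyp2d22, Cyp2d26, Cyp2d34 or Cyp2d40 were taken, out of 19944 genes in all. The counterpart of this subfamily in human liver is CYP2D6, whereas the mouse carries a row of related copies that arose by gene duplication. Several of them are known as highly expressed hepatocyte genes, and Cyp2d9, a testosterone hydroxylase, is known to be higher in male than in female mouse liver.

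The study asked how loss of SND1, and separately a change in its Tudor domain, altered liver transcripts. SND1 combines repeats that resemble a staphylococcal nuclease with a Tudor domain, which recognises methylated arginine in other proteins. Total RNA came from livers of male mice, 60 days old, on normal chow, and the sample titles name the FVB strain. There were 3 groups of 3 libraries: Snd1 knockout (KO), a Tudor domain mutant made by knock-in (KI), and wild type (WT). Library names give the group and then the number in the sample title, as in KO_1. The promoter or founder behind the alleles, and whether mice shared a litter or cage, are not given in the sources used here, so all p-values measure only the spread between these samples.

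Depth was even, with 59678412 to 66384374 recovered reads per library. The Snd1 transcript itself had 227, 414 and 359 normalized counts in KO, 5373, 7941 and 5595 in KI, and 6951, 8446 and 6512 in WT. The labels give the cell type as hepatocyte but the tissue as liver. The 9 hepatocyte markers found in the table took 5.53% to 7.73% of the library in KO, 4.99% to 7.85% in KI and 7.2% to 9.27% in WT. In the limma fit 1 of the 9, Fabp1, was called lower in KO than in WT, and 0 were called in KI against WT. The list medians of the log2 fold change were -0.06 in KO against WT and -0.12 in KI against WT. Such shares also fall where other transcripts take more of the library, such as the pancreatic and acute phase ones below. In bulk tissue, fewer cells of a type and less RNA per cell cannot be told apart. Pancreatic enzyme transcripts, a list of 20 genes, took 6.48% of KI_3, 1.34% of WT_3 and 0.562% of KI_1, and at most 0.00526% of any other library, where 6 to 16 of the 20 were at 0. Acute phase genes of the inflamed liver took 7.67%, 19.7% and 20.6% of KO_1, KO_2 and KO_3, against 1.49% to 2.16% in KI and 1.83% to 2% in WT.

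The family lies in a single cluster of 423.8 kb on mouse chromosome 15, at chr15:82370527-82794294 in build GRCm38. In order along the chromosome, GENCODE release M21 places Cyp2d22 (ENSMUSG00000061740, chr15:82370527-82380260), Cyp2d11 (ENSMUSG00000068085, chr15:82389154-82394022) and Cyp2d10 (ENSMUSG00000094806, chr15:82402846-82407195) on the reverse strand. Cyp2d9 (ENSMUSG00000068086, chr15:82433437-82456845) and Cyp2d12 (ENSMUSG00000096852, chr15:82555072-82560403) follow on the forward strand. Cyp2d34 (ENSMUSG00000094559, chr15:82615965-82620946), Cyp2d40 (ENSMUSG00000068083, chr15:82759833-82764183) and Cyp2d26 (ENSMUSG00000022445, chr15:82790101-82794294) are again on the reverse strand. Cyp2d13 (ENSMUSG00000118516) is listed by RefSeq as a transcribed pseudogene at chr15:82636750-82642045, and it has no entry under its identifier in GENCODE M21, so no coding length is given for it.

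The copies are close relatives in sequence. Among the 8 members with an annotated coding sequence, the 28 pairs shared 77.8% to 94.7% of aligned bases, the highest being Cyp2d10 with Cyp2d11. Of all 50-base windows of the coding sequence, 40.3% for Cyp2d10, 35.6% for Cyp2d11 and 30.8% for Cyp2d9 occurred unchanged in another member, against 11.5% for Cyp2d22 and 12% for Cyp2d26. Reads from such windows could be assigned to either copy or dropped by the authors' counting, so the split among Cyp2d9, Cyp2d10 and Cyp2d11 is less certain than the levels of Cyp2d22 and Cyp2d26. Cyp2d12 had 17.3% of such windows and shared 92.1% of aligned bases with Cyp2d9. Its WT mean was 244 normalized counts, against 78969 for Cyp2d9, so even a small share of misassigned Cyp2d9 reads could change its count. Cyp2d13 and the Cyp2d pseudogenes were not in this window comparison. The annotated Cyp2d9 gene also overlaps the pseudogene Gm46501, and reads there could be split.

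Promoter sequences from RefSeq (GRCm38.p6) were found for 5 of the 9 members, and a stretch before the start is shown for each. None of the 5 was called in KO against WT, and Cyp2d12 and Cyp2d13, the members called, were not among them. Each is written 5′ to 3′ on the gene's own strand. The capitals mark a match to CAAAGNNCA, the core of sites bound by the nuclear receptor HNF4A, and a TATAA box.
Cyp2d9: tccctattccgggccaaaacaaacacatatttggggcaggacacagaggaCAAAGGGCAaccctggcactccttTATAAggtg
Cyp2d10: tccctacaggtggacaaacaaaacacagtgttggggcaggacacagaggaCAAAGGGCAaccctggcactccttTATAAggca
Cyp2d11: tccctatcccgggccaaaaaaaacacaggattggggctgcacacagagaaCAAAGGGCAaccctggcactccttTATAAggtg
Cyp2d40: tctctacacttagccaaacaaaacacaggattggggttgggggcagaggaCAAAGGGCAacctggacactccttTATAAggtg
Cyp2d26: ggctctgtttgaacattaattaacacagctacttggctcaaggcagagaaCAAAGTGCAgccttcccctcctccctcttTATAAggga
These cores lie at chr15:82452277-82452359 on the forward strand, and on the reverse strand at chr15:82407215-82407297, chr15:82394055-82394137, chr15:82764203-82764285 and chr15:82794266-82794353.

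All 5 promoters held both motifs within the 250 bases before the RefSeq start, where 5.49% of 32851 mouse promoter windows of that length held CAAAGNNCA and 22.8% held TATAA, with both strands searched. No marked CAAAGNNCA match overlapped a TATAA match. The marked TATAA box began 26, 29, 41 and 29 bases before the RefSeq start in Cyp2d9, Cyp2d10, Cyp2d11 and Cyp2d26. In Cyp2d40 it began 89 bases before, so the stretch printed for that gene lies further from its RefSeq start. GENCODE M21 places the first base of Cyp2d40 elsewhere, at chr15:82764183, nearer to that stretch. By GENCODE M21 the stretch printed for Cyp2d9 lies inside the gene, and that for Cyp2d26 lies partly inside. The distances given here therefore hold for the RefSeq starts only. The spacing from the first base of the CAAAGNNCA match to the first base of the TATAA box was 24 bases in Cyp2d9, Cyp2d10, Cyp2d11 and Cyp2d40, all with the letters CAAAGGGCA, and 29 bases in Cyp2d26, with CAAAGTGCA. Over the whole 250 bases, Cyp2d9 and Cyp2d11 were 93.6% identical, Cyp2d9 and Cyp2d40 80.2%, and Cyp2d9 and Cyp2d26 64.4%. Neither TTCNNNGAA, the STAT-type motif (in 7.02% of all windows), nor TTGCNNAA, a C/EBP-type motif (9.56%), matched in any of the 5. A match describes these letters and does not show binding.

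Levels were compared between genes as normalized counts per kilobase of coding sequence. In KO livers the means were 26284 ± 15310 per kilobase for Cyp2d9, 24385 ± 8621 for Cyp2d10, 18875 ± 5155 for Cyp2d26 and 11314 ± 5676 for Cyp2d22 (SD, n = 3). These ranges over libraries overlapped, but within each KO library Cyp2d10 was above Cyp2d26, with log2 ratios of 0.51, 0.21 and 0.36 of the normalized counts, and Cyp2d22 was below it, at -0.44, -1.02 and -0.99. Cyp2d9 could not be ordered against Cyp2d26 in KO, with ratios of 0.88, -0.01 and 0.26. In KI livers Cyp2d9 led at 50540 ± 6956 per kilobase, followed by Cyp2d10 at 29778 ± 5109, Cyp2d26 at 18307 ± 2504 and Cyp2d22 at 15593 ± 3152. In WT livers the order was the same, with 52125 ± 866 for Cyp2d9, 37067 ± 2500 for Cyp2d10, 19872 ± 2829 for Cyp2d26 and 16209 ± 2419 for Cyp2d22. In both KI and WT, the ranges of Cyp2d26 and Cyp2d22 overlapped while those of Cyp2d9, Cyp2d10 and Cyp2d26 did not. Within each library Cyp2d22 was below Cyp2d26, by log2 ratios of -0.28, -0.14 and -0.3 in KI and -0.39, -0.25 and -0.25 in WT. A wide gap separated these genes from the weak members, which in WT came to 1045 ± 71.1 per kilobase for Cyp2d40, 399 ± 37.2 for Cyp2d11, 161 ± 20.7 for Cyp2d12 and 5.21 ± 4.37 for Cyp2d34. The coding length used for Cyp2d40 is 1017 bases, shorter than the 1503 to 1515 of the others, and its value per kilobase carries that uncertainty.

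The first comparison set KO against WT livers, to see what followed the loss of SND1. Cyp2d12 and Cyp2d13 fell in KO, to 4.94-fold and 1.93-fold lower levels than in WT. Cyp2d9, Cyp2d10 and Cyp2d11 were below WT in every KO library, and Cyp2d40 was above WT in every KO library, but none of these 4 passed the test. Cyp2d22 and Cyp2d26 overlapped with WT. Of the 9 members 8 could be tested, having a mean of at least 10 normalized counts over the 9 libraries, and limma called 2 lower and 0 higher, at an adjusted p under 0.05. Over all 15238 genes tested, 4.2% were called lower and 4.63% higher. The groups did not overlap for 5 members lower in KO and 1 higher, beside 14.2% and 15% of all genes, and the median log2 fold change was -0.7 over the 8 members and 0.001 over all genes tested.

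**Figure D1:**
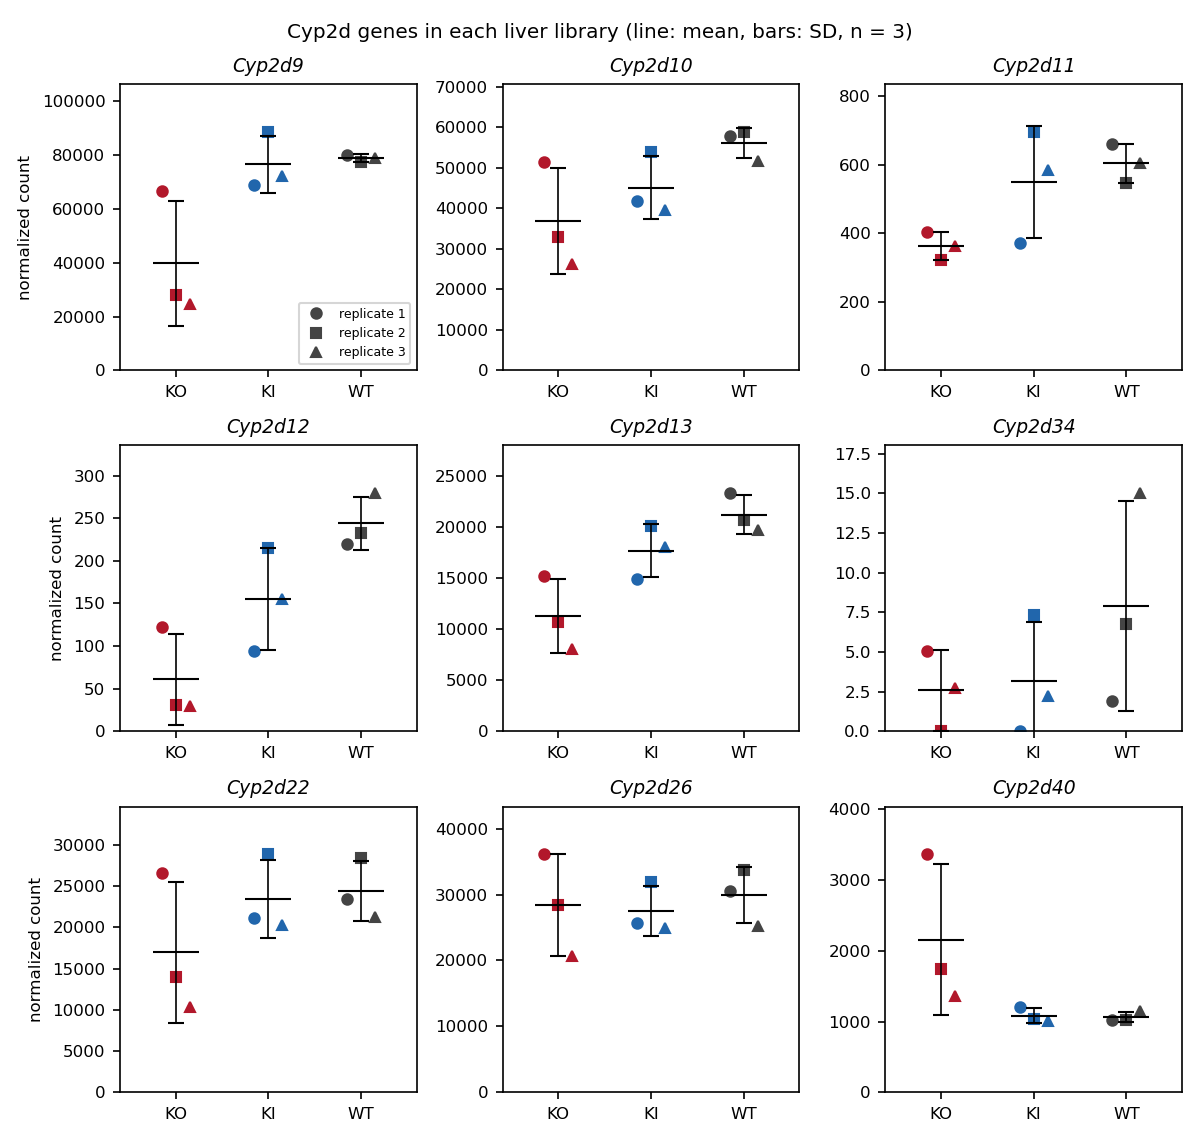
Normalized count of each Cyp2d gene (vertical axis, linear from 0, scaled per gene) in the KO, KI and WT libraries. Points are libraries, shaped by replicate number, horizontal lines are means and bars are SD over 3 libraries. KO_1 was the highest KO library for all 9 genes, and Cyp2d40 alone had all 3 KO libraries above all KI and WT libraries.

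Cyp2d9 had normalized counts of 66527, 28205 and 24730 in KO_1, KO_2 and KO_3, against 80238, 77619 and 79049 in WT. All KO libraries lay below the narrow WT range, KO_1 much nearer to it than KO_2 and KO_3. On the log2 scale KO differed from WT by -1.14 ± 0.32 (SE, limma adjusted p = 0.0571), short of the threshold. Without KO_1 it was -1.58 with an adjusted p of 0.000155, and DESeq2 gave -0.99 with an adjusted p of 0.0147.

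Cyp2d10, which shares much of its coding sequence with Cyp2d9 and Cyp2d11, had 51550, 32887 and 26392 in KO, against 57806, 58839 and 51824 in WT. KO_1 lay just under the lowest WT library, and KO_2 and KO_3 well below it. The log2 fold change was -0.66 ± 0.24 (limma adjusted p = 0.121), and without KO_1 it was -0.93 with an adjusted p of 0.00564. Cyp2d11, the weakly expressed copy most like Cyp2d10, had 405, 323 and 364 in KO, against 661, 548 and 606 in WT. Here the 3 KO libraries lay close together and all well below WT. The log2 fold change was -0.73 ± 0.22 (limma adjusted p = 0.0621). Its adjusted p passed at 0.0474 without KO_1, 0.0208 without KI_1, 0.0465 without KI_2, 0.0321 with the KO and WT libraries alone and 0.0163 by DESeq2.

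Cyp2d12 had 123, 30.4 and 29.9 normalized counts in KO, against 220, 233 and 279 in WT. KO_2 and KO_3 were nearly equal and far below KO_1, and none reached WT. It fell by 2.31 ± 0.51 on the log2 scale (limma adjusted p = 0.0219). The call was lost when KO_2, KO_3, WT_1, WT_2 or WT_3 was left out (adjusted p = 0.0908, 0.0662, 0.0686, 0.0649 and 0.0754), by edgeR (0.0506) and without the 3 libraries with pancreatic transcripts (0.199). The log2 fold change stayed between -2.97 and -1.97 over all 21 settings.

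Cyp2d13, the transcribed pseudogene, was far from silent, with 15192, 10664 and 8081 normalized counts in KO, against 23287, 20621 and 19641 in WT. Every KO library was below every WT library. It fell by 0.95 ± 0.21 on the log2 scale (limma adjusted p = 0.0238). Leaving out KO_2, KO_3, WT_1, WT_2 or WT_3 ended this call (adjusted p = 0.0866, 0.0563, 0.0975, 0.0684 and 0.0586), as did fitting KO and WT alone (0.0507) or removing the 3 libraries with pancreatic transcripts (0.18), with log2 fold changes between -1.19 and -0.73 over all settings. An antisense transcript, Gm49431, overlaps this locus at chr15:82621092-82660905 and had means of 105 in KO and 197 in WT (log2 fold change -0.88, adjusted p = 0.0573). The strand setting of the authors' counting is not given in the sources used here, so reads of the 2 transcripts may be mixed.

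Cyp2d22, the mouse gene often used as the counterpart of human CYP2D6, had 26640, 13959 and 10415 in KO, against 23407, 28380 and 21300 in WT. KO_1 lay inside the WT range and the other KO libraries below it. The log2 fold change was -0.62 ± 0.3 (limma adjusted p = 0.233), and without KO_1 it was -1 with an adjusted p of 0.00766. Cyp2d26 had 36116, 28369 and 20621 in KO, against 30594, 33711 and 25299 in WT. The KO libraries spread to both sides of WT. The estimate of -0.1 ± 0.21 (adjusted p = 0.82) ran from -0.29 to 0.11 over the 21 settings and passed in none.

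Cyp2d40 lay on the other side of WT. It had 3360, 1746 and 1357 normalized counts in KO, against 1018, 1025 and 1147 in WT. All KO libraries exceeded WT, KO_1 the most, and the log2 fold change was 0.91 ± 0.27 (limma adjusted p = 0.0614). Its adjusted p passed by edgeR (0.0489) and DESeq2 (0.00511), with replicate numbers as a block (0.0462), without KO_1 (0.0313) and without KO_3 (0.022). Cyp2d34 was near the detection floor, with 5.07, 0 and 2.71 in KO, against 1.92, 6.74 and 15 in WT, and was not tested.

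**Figure D2:**
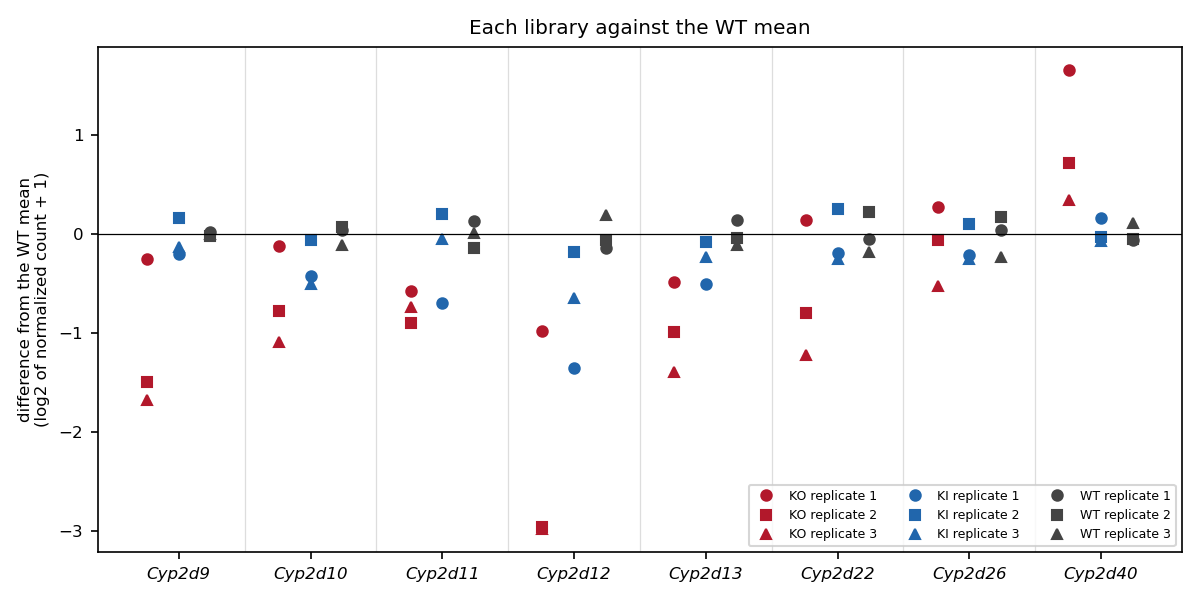
Difference of each library from the WT mean on the log2 scale of normalized count + 1 (vertical axis) for the 8 tested members (horizontal axis). Within each gene the KO, KI and WT libraries run from left to right, with symbols by replicate number. KO_1 sits above KO_2 and KO_3 for every gene, at differences from WT that run from -0.98 in Cyp2d12 to 1.66 in Cyp2d40.

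The KO libraries were not alike. Averaged over the 8 tested members, KO_1 deviated from the WT mean by -0.04 on the log2 scale, KO_2 by -0.9 and KO_3 by -1.16. The value of KO_1 holds Cyp2d40 at 1.66, and over the other 7 members, of which 5 were below the WT mean in KO_1, the averages were -0.28 in KO_1, -1.14 in KO_2 and -1.37 in KO_3. Without KO_1, limma called 7 members, all those tested except Cyp2d26, of which 6 were lower and Cyp2d40 was higher. The number of all genes called was 2516 in that fit and 1346 in the full one. KO_1 also had the smallest acute phase share of the KO livers, as given above, and 21 of 24 acute phase genes were called higher in KO. Markers of neutrophils and monocytes, 12 genes of which 10 were in the table, 9 were tested and 1 was called (Mmp8, higher in KO), summed to 0.000435% of KO_1, 0.0018% of KO_2 and 0.00369% of KO_3. The same sum was 0.00031% to 0.000804% in KI and 0.000226% to 0.000638% in WT, with at most 2 of the markers at 0 in any library. Of 14 Kupffer cell and macrophage markers 3 were called higher in KO than in WT (Mpeg1, Marco and Cd163) and 0 lower. Their sum was 0.0523% of KO_1, 0.0447% of KO_2 and 0.104% of KO_3, 0.0402% to 0.0639% in KI and 0.0325% to 0.0603% in WT, with 0 markers at 0 in any library. All 13 mitochondrially encoded genes had negative log2 fold changes against WT, both in KO and in KI, with medians of -0.26 and -0.27 and 0 called. They took 0.662% to 0.816% of KO libraries, 0.605% to 0.801% of KI libraries and 0.699% to 1.0% of WT libraries. Whether acute phase genes, these cells or RNA quality had a part in the Cyp2d values was not tested. Without WT_3, KI_1 and KI_3, the libraries with pancreatic transcripts, 0 members and 30 genes were called in KO, with 2732 genes at an unadjusted p under 0.05, and the log2 fold changes of Cyp2d12 and Cyp2d13 were -2.2 and -1.

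Reads exchanged between copies stay within the family sum. That sum was 199918, 116184 and 91994 normalized counts in KO and 217233, 220983 and 199160 in WT. KO_1 exceeded the lowest WT library, and KO_2 and KO_3 were far below it. The mean was 136032 ± 56634 in KO and 212459 ± 11669 in WT (SD, n = 3 each), a ratio of 0.64. As a share of the library the family took 0.312%, 0.185% and 0.168% in KO and 0.358%, 0.365% and 0.326% in WT. On this scale all KO libraries were below all WT libraries, KO_1 by a small margin. Any share is lower where other genes take more of the library, and acute phase genes took 7.67%, 19.7% and 20.6% of the KO libraries. In WT they took 1.83% to 2%. Their part in the lower family share of KO was not tested.

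The mix of transcripts within the family differed as well. Cyp2d9 supplied 28.2% ± 4.63 of the sum in KO and 37.2% ± 2.32 in WT, and Cyp2d26 supplied 21.6% ± 3.22 in KO and 14% ± 1.3 in WT (SD, n = 3 each). Cyp2d40 supplied 1.55% ± 0.11 in KO and 0.503% ± 0.0635 in WT. Cyp2d10 was 27.6% ± 1.57 of the sum in KO and 26.4% ± 0.346 in WT. For Cyp2d9, Cyp2d12, Cyp2d13, Cyp2d26 and Cyp2d40 the shares of KO and WT libraries did not overlap. The margin was narrow for Cyp2d13, with 9.18% in KO_2 and 9.33% in WT_2. Ratios to Cyp2d26 within a library do not depend on scaling between libraries. The log2 ratio of Cyp2d9 to Cyp2d26 was 0.88, -0.01 and 0.26 in KO, against 1.39, 1.2 and 1.64 in WT. The difference was -1.03 for Cyp2d9, -0.56 for Cyp2d10 and -0.52 for Cyp2d22, each without overlap. Each had p = 0.1 by the exact two-sided permutation test, the smallest that 3 against 3 allows, and an adjusted p of 0.129 over the 9 ratio comparisons made.

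**Figure D3:**
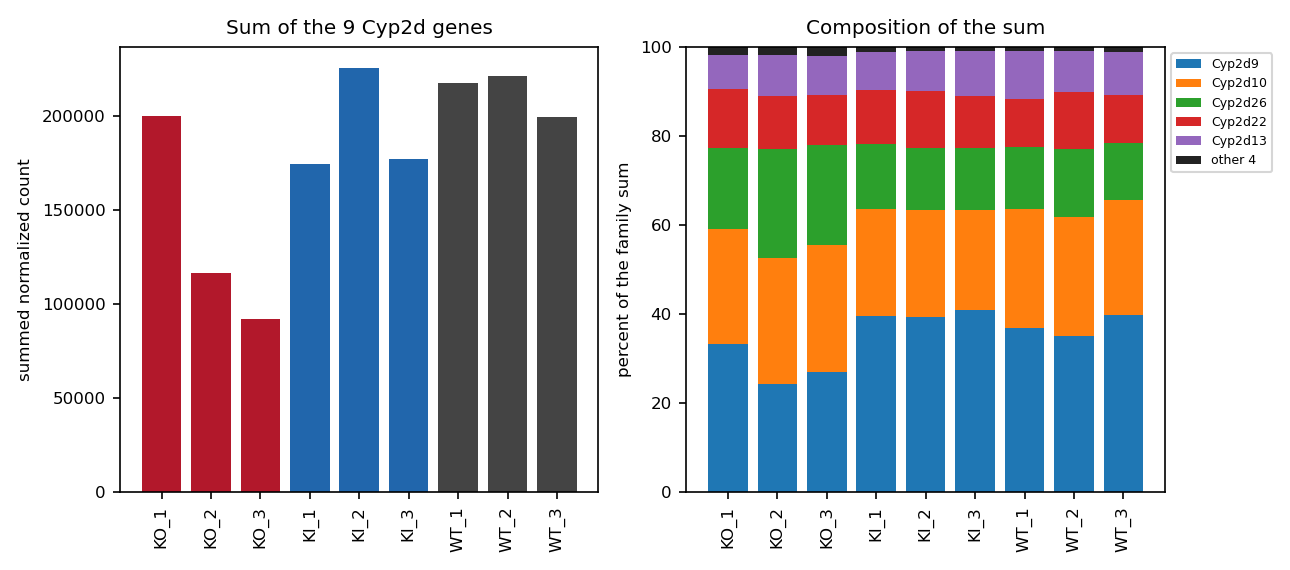
Left, sum of the normalized counts of the 9 Cyp2d genes per library, from 0. Right, percent of that sum from each of the 5 highest genes and from the other 4 together. KO_2 and KO_3 had the lowest sums, and the Cyp2d26 segment was 18.1% to 24.4% in KO, 14.1% to 14.8% in KI and 12.7% to 15.3% in WT.

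The effect of the Tudor domain change was examined by comparing KI with WT livers, using the same WT libraries as above. limma called 0 of the 8 tested members. An unadjusted p under 0.05 was found for 0 members, beside 1769 of the 15238 genes tested. edgeR and DESeq2 also called 0 members, beside 1 and 372 of all genes. Over all genes limma called 0.0263%. The log2 fold changes of the members ran from -0.72 to 0.03 with a median of -0.15, and the median over all genes tested was 0.004. The groups did not overlap for 1 member, Cyp2d12, which was lower in KI, beside 10.2% of all genes lower without overlap.

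Cyp2d12 had 94.5, 215 and 156 normalized counts in KI, against 220, 233 and 279 in WT. KI_2, the KI library with almost no pancreatic transcripts, lay just under the lowest WT library. The log2 fold change was -0.72 ± 0.51 (limma adjusted p = 0.627). Cyp2d9 had 68862, 88576 and 72265 in KI, a mean of 76568 ± 10540, against 78969 ± 1311 in WT. KI_2 exceeded WT and the other KI libraries were below it, and the log2 fold change was -0.05 ± 0.32 (adjusted p = 0.969). Cyp2d10 had 41846, 53953 and 39543 in KI, with only KI_2 inside the WT range of 51824 to 58839, and a log2 fold change of -0.33 ± 0.24 (adjusted p = 0.647).

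Cyp2d13 had 14937, 20036 and 18071 in KI, with KI_2 inside the WT range and a log2 fold change of -0.27 ± 0.21 (adjusted p = 0.68). Cyp2d11 had 372, 696 and 584 in KI, on both sides of WT, with a log2 fold change of -0.18 ± 0.22. Cyp2d40 had 1198, 1042 and 1012 in KI, close to its WT values, with a log2 fold change of 0.03 ± 0.27 (adjusted p = 0.982). For Cyp2d22 (21151, 28884 and 20275 in KI) and Cyp2d26 (25712, 31841 and 24991 in KI) the log2 fold changes were -0.06 ± 0.3 and -0.12 ± 0.21. These standard errors leave room for differences of modest size in either direction. KI_2 was the highest KI library for every member except Cyp2d40. Pancreatic transcripts were found in the other KI libraries, KI_1 and KI_3, and their part in this was not tested.

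The family sum was 174173, 225250 and 176899 in KI, with a mean of 192107 ± 28735 and a ratio of 0.904 to WT. KI_2 lay above all WT libraries, and KI_1 and KI_3 below them. Cyp2d9 supplied 39.9% ± 0.872 of the sum in KI. The log2 ratio of Cyp2d9 to Cyp2d26 was 1.42, 1.48 and 1.53 in KI, inside the WT range. The ratio of Cyp2d10 to Cyp2d26 was 0.7, 0.76 and 0.66 in KI and 0.92, 0.8 and 1.03 in WT. That is a difference of -0.21 without overlap, at the smallest exact permutation p of 0.1 (adjusted p = 0.129).

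KI was set directly against KO, a comparison that shares the KO and KI libraries with those above. limma called 0 of the 8 members, beside 3.6% of all genes called higher in KI and 4.85% lower. An unadjusted p under 0.05 was found for 5 members, beside 3788 of the 15238 genes tested. edgeR called 0 members, beside 1200 of all genes, and DESeq2 called 3, beside 2286. The 3 called by DESeq2 were Cyp2d9 and Cyp2d13, higher in KI, and Cyp2d40, lower in KI (adjusted p = 0.0224, 0.0301 and 0.00709). Groups did not overlap for Cyp2d9, higher in KI, and Cyp2d40, lower in KI, beside 12.3% of all genes higher and 14.1% lower without overlap. The median log2 fold change was 0.56 over the members and 0.011 over all genes tested.

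The lowest KI library for Cyp2d9 (68862) stood just above the highest KO library (66527), and the log2 fold change was 1.08 ± 0.32 (limma adjusted p = 0.0682). For Cyp2d40 the highest KI library had 1198 and the lowest KO library 1357, with a log2 fold change of -0.88 ± 0.27 (adjusted p = 0.0692). Cyp2d12 differed by 1.58 ± 0.51 (adjusted p = 0.0827) and Cyp2d13 by 0.68 ± 0.21 (adjusted p = 0.0777), both with overlapping groups. Cyp2d26 differed by -0.02 ± 0.21. Without KO_1, 2301 genes passed in KI against KO, beside 1287 in the full fit, and 6 members were among them, with an adjusted p of 0.000193 for Cyp2d9, 0.0437 for Cyp2d10, 0.00199 for Cyp2d12, 0.00511 for Cyp2d13, 0.0115 for Cyp2d22 and 0.0407 for Cyp2d40. Without KO_3 only Cyp2d40 passed (0.0255), and without KI_1 only Cyp2d11 (0.0347), beside 816 and 481 of all genes.

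The table holds 3 more rows of the cluster, annotated as unprocessed pseudogenes. Cyp2d41-ps, which lies between Cyp2d40 and Cyp2d26, had 87.2, 104 and 63.3 normalized counts in KO, 31.1, 50.2 and 49.3 in KI, and 29.7, 54.9 and 54.1 in WT. Like Cyp2d40 beside it, it was higher in every KO library than in any other, with a log2 fold change of 0.89 ± 0.36 in KO against WT (limma adjusted p = 0.156). Cyp2d36-ps, on the far side of Cyp2d13, had 73, 109 and 78.7 in KO and 241, 130 and 131 in WT, with a log2 fold change of -0.89 ± 0.32 (adjusted p = 0.11) and no overlap. Cyp2d35-ps had at most 18.2 and was not tested.

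**Figure D4:**
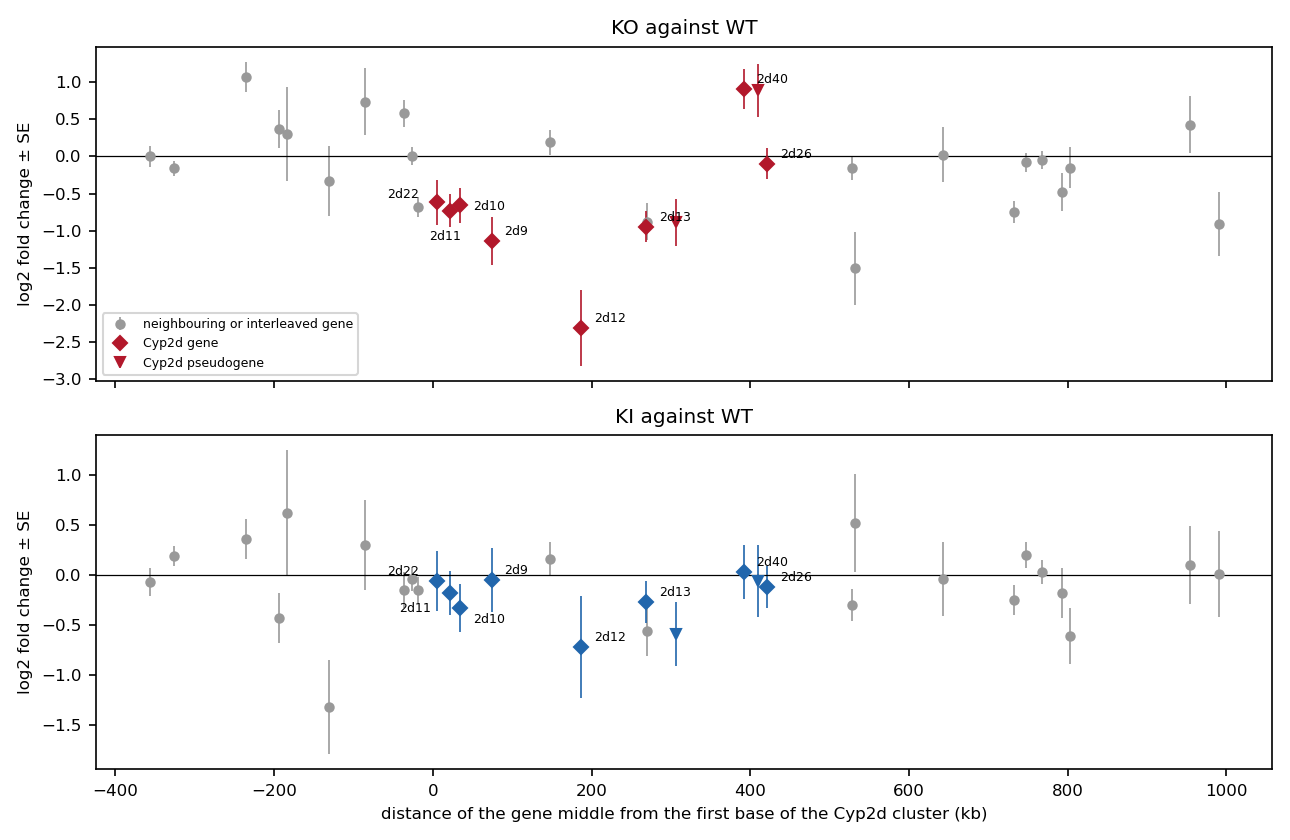
Log2 fold change with SE (vertical axis) by distance of the gene middle from the first base of the Cyp2d cluster in kb (horizontal axis), for KO against WT above and KI against WT below. Diamonds are Cyp2d genes, triangles Cyp2d pseudogenes and grey circles other tested genes. In KO, Cyp2d40 and Cyp2d41-ps stand at 0.91 and 0.89, with Cyp2d26 next to them at -0.1.

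Genes around the cluster were counted for comparison. Of the 20 nearest tested genes, 10 on each side, limma called 1 higher in KO than in WT and 2 lower, beside 8.83% of all genes called in either direction. Ccdc134 had a log2 fold change of 1.07 (adjusted p = 0.0101), the complex I subunit gene Ndufa6 of -0.68 (adjusted p = 0.0106) and Serhl of -0.75 (adjusted p = 0.0138). Ndufa6, 16.2 kb from Cyp2d22, had means of 3334 in KO and 5322 in WT. The median of the 20 was -0.06 in KO against WT and -0.04 in KI against WT, where 0 were called.

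P450 enzymes need electrons and heme. Of 6 redox partner genes, limma called 2 lower in KO than in WT and 0 higher. Cytochrome b5 (Cyb5a), which passes electrons to P450 enzymes, had means of 23655 ± 7484 in KO and 49240 ± 2851 in WT (SD, n = 3 each) and fell by 1.1 on the log2 scale (adjusted p = 0.0111). Pgrmc1, a heme-binding partner of P450 enzymes, had 33072 ± 9602 in KO and 57146 ± 3721 in WT and fell by 0.82 (adjusted p = 0.0359). P450 oxidoreductase (Por), the main electron donor and chosen after its values were seen, had 18899, 21017 and 8675 in KO, against 25964, 33961 and 21872 in WT. All KO libraries were below WT, with a log2 fold change of -0.83 ± 0.3 (adjusted p = 0.119). In KI against WT none of the 6 was called.

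Transcription factors of the hepatocyte and the growth hormone axis, which sets the male pattern of liver genes, were described next. Of 19 transcription factor genes, limma called 1 lower in KO than in WT, the xenobiotic receptor Nr1i3 (means of 2916 ± 265 in KO and 6325 ± 1428 in WT, log2 fold change -1.1, adjusted p = 0.00919), and 1 higher, Foxa3 (log2 fold change 0.67, adjusted p = 0.018). Hnf4a, chosen after its values were seen because its motif is printed above, had 42353, 49575 and 37084 in KO, against 36837, 37079 and 29444 in WT. All KO libraries were above WT, KO_3 by a very small margin, and the log2 fold change was 0.32 ± 0.17 (adjusted p = 0.268). Of 11 growth hormone axis genes 2 were called lower in KO than in WT and 0 higher. Log2 fold changes were negative for 6 of the 11, with a list median of -0.66. Igf1 fell by 0.66 (adjusted p = 0.0234), with means of 28340 ± 3625 in KO and 44622 ± 1724 in WT. The growth hormone receptor gene Ghr fell by 1.16 (adjusted p = 0.0377), with 28784, 12747 and 11652 in KO, against 35676, 36140 and 37151 in WT. As with Cyp2d9, KO_1 was nearest to WT. Stat5b and Esr1, of the same list, had higher means in KO than in WT, but neither was called in that comparison. The means were 3097 ± 271 and 2399 ± 187 for Stat5b, and 1932 ± 609 and 1116 ± 284 for Esr1. In KI against KO limma called both lower (adjusted p = 0.00285 and 0.0445).

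Ghr was also the gene most like Cyp2d9 in its course over the 9 libraries. Over 12301 genes whose mean reached 50, likeness was measured as the root mean square difference of log2 values, each centred on its own mean, so that a smaller value is more alike. The 3 genes outside the family nearest to Cyp2d9 were Ghr (0.06), Ugt3a2 (0.086) and Ngef (0.115). Nearest to Cyp2d10 were Afm (0.047), Car5a (0.073) and Eno1 (0.076), and nearest to Cyp2d26 were Got2 (0.046), Sik3 (0.059) and Serpina1c (0.06). These are descriptions over libraries that share their genotype groups.

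Of 16 other male-biased liver genes, limma called 4 lower in KO than in WT and 0 higher, with a list median of -0.49. Cyp4a12b fell by 1.03 (adjusted p = 0.00301), Cyp4a12a by 0.98 (adjusted p = 0.0234), Selenbp2 by 1.7 (adjusted p = 0.0318) and Ugt2b38 by 1.27 (adjusted p = 0.0405). Averaged over the 16 genes, KO_1 deviated from the WT mean by 0.47 on the log2 scale, KO_2 by -1.22 and KO_3 by -0.98. Summed, these genes took 1.06%, 0.551% and 0.641% of the library in KO. They took 1.2%, 1.13% and 1.05% in KI, and 1.33%, 1.13% and 1.33% in WT. By this share all KO libraries were below all WT libraries, KO_1 by a small margin. The larger acute phase share of KO libraries, given above, lowers the share left for other genes, and its part here was not tested. In KI against WT 0 of the 16 genes were called and the list median was 0.14.

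Other drug-metabolising P450 families had medians further below 0 in KO. Of 13 tested Cyp2c genes 7 were lower in KO than in WT and 0 higher, with a median of -2.23. Of 6 tested Cyp2a and Cyp2b genes 2 were lower, with a median of -1.64, and of 6 tested Cyp3a genes 4 were lower and 1 higher, with a median of -2.34. The Cyp2d median of -0.7 was the nearest to 0 of these families. In KI against WT the medians were -0.15 for Cyp2d, -0.51 for Cyp2c, -0.37 for Cyp2a and Cyp2b, and -0.7 for Cyp3a, and 1 gene of the 33 was called, Cyp2c39, lower in KI. The difference between families was not tested.

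**Figure D5:**
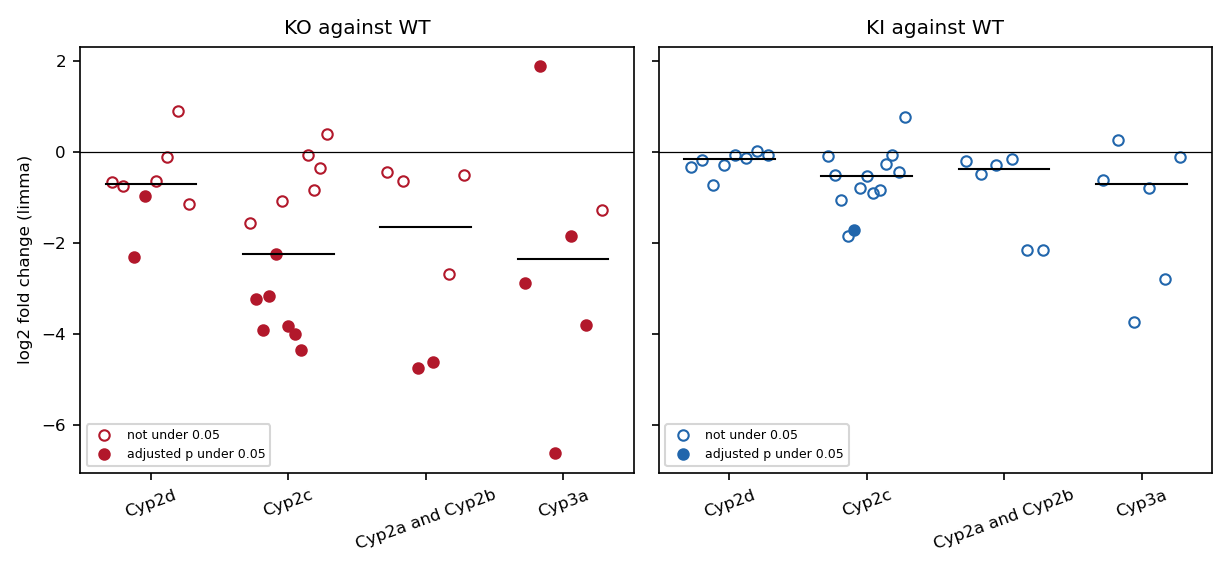
Log2 fold change (vertical axis) of each tested gene in 4 groups of P450 genes, for KO against WT on the left and KI against WT on the right. Filled points had an adjusted p under 0.05 in limma and lines are medians. In KO the Cyp2d genes ran from -2.31 to 0.91, while Cyp2c, Cyp2a, Cyp2b and Cyp3a genes reached down to -6.61.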

How the data were processed

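The authors deposited 1 table of a non-negative signal per gene, named normalized counts. Per the submitters' processing notes, TopHat2 and Bowtie2 aligned reads to GRCm38 and featureCounts counted them. Versions, annotation, strand setting and scaling are not given in the sources used here, which leaves reads of near-identical or overlapping genes uncertain. Per the labels' protocols, libraries were stranded mRNA.

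Each column held whole reads divided by a size factor (0.8921 to 1.1051). With a tolerance of 0.0051, 99.975% or more of a library's values proved whole, and 12 values in all did not. In WT_3 the factor of 0.9987 is so near 1 that only higher values showed the step. Columns were matched to samples by the animal number in the descriptions.

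Values were tested as log2(value + 1) with limma 3.58.1 in R 4.3.3, with a variance trend, in the 15238 genes with a mean of at least 10. The fit had 1 mean per group, 6 residual degrees of freedom and two-sided Benjamini-Hochberg adjustment over all genes tested, with calls at 0.05. The recovered counts from the deposited table were tested with edgeR 4.0.16, which called 1210, 1 and 1200 genes in KO against WT, KI against WT and KI against KO, and with DESeq2 1.42.0. Both tools, and the limma fit, were checked on simulated data. Coding sequences came from GENCODE M21. Other computing used Python 3.11.

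The members, the 21 gene lists and the tests were chosen with earlier results of these data known. Named genes are the members, other Cyp2d rows, called members of a list (up to 4, by smallest adjusted p), called neighbours of the cluster and the 3 genes most like each of Cyp2d9, Cyp2d10 and Cyp2d26. Outside this rule, Snd1, Por and Hnf4a are named, and Gm49431 and Gm46501 because they overlap members. Counts of the closest replicates differed far beyond sampling noise (chi-square over degrees of freedom 68.1), and no library was a copy. Alternatives were other pseudocounts and filters, TMM scaling, only the groups compared, a replicate block by the titles' numbers and, chosen after seeing the data, by the column names' numbers, each library left out, and the 3 libraries with pancreatic transcripts left out.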

Additional observations from a re-analysis of the deposited data

How the results depend on the processing

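No member changed direction in a call. Cyp2d26 and the KI against WT comparison gave 0 member calls under every setting that kept more than 1 KI library. Without the 3 libraries with pancreatic transcripts KI_2 was the only KI library, so calls of KI comparisons are not given for that setting. In KO against WT the 2 members called became 5 with DESeq2 (Cyp2d9, Cyp2d11, Cyp2d12, Cyp2d13 and Cyp2d40) and 0 without the 3 libraries with pancreatic transcripts, and 0 to 7 with single libraries left out. In KI against KO the 0 called became 3 with DESeq2, and 0 to 6 with single libraries left out. Over all genes, KO against WT gave 1346 calls, with 2293 by DESeq2, 871 with only the 2 groups compared, 30 without the libraries with pancreatic transcripts and 501 to 2516 with single libraries left out. KI against WT gave 4, with 1 by edgeR, 372 by DESeq2, 8 with no filter and 7 with a mean of at least 50. It gave 28 with only the 2 groups compared and 0 to 35 with single libraries left out. KI against KO gave 1287, with 2286 by DESeq2, 608 with only the 2 groups compared and 400 to 2301 with single libraries left out. The cause of these shifts was not tested, and fits that leave libraries out have fewer samples. Cyp2d12 and Cyp2d13 were each called in KO against WT in 14 of the 21 settings.

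The titles' replicate numbers are shared between groups but are not said to mark litters, so same-numbered libraries were not treated as pairs. They deviated together with correlations of -0.14 to 0.57, and 6 of 9 libraries correlated best with their own number. The highest correlations were 0.53 and 0.57, for KI and WT with numbers 2 and 3. This mixed check cannot settle whether they were pairs. With the replicate block 1551, 3 and 1500 genes were called in KO against WT, KI against WT and KI against KO, and Cyp2d40 passed in KO against WT (log2 fold change 0.91, adjusted p = 0.0462). The column names end in a second number that differs from the title's for 8 of the 9 libraries. For that number the correlations were -0.15 to 0.57 and 5 libraries correlated best with their own. A replicate block by it, chosen after seeing the data, gave 1286, 8 and 1312 calls and the same number of member calls (2, 0 and 0). Cyp2d34 was too low to test at this depth, and 3 libraries a group limit the precision.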

Other observations

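Heme is the cofactor of every P450, and the heme synthesis genes were examined beside the family. Of 8 genes, limma called 1 higher in KO than in WT, Uros (log2 fold change 0.51, adjusted p = 0.0327), and 0 lower. Alas1, the rate-limiting enzyme, had means of 45665 ± 2255 in KI and 13082 ± 8484 in KO (SD, n = 3 each), a log2 fold change of 1.99 in KI against KO (adjusted p = 0.0149). In WT it averaged 19993 ± 7182, and its log2 fold change in KI against WT was 1.26 (adjusted p = 0.251). All 3 KI libraries, at 47794, 45899 and 43302, exceeded all KO and WT libraries, while KO_1 (22832) lay inside the WT range of 11952 to 25772.

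Genes of the liver zones were counted as well. Of 15 pericentral genes, limma called 2 lower in KO than in WT and 0 higher. The aldehyde dehydrogenase gene Aldh3a2 fell by 2.32 (adjusted p = 0.00169), with means of 2878 ± 1416 in KO and 13393 ± 1246 in WT. Lect2 fell by 0.68 (adjusted p = 0.0407). Of 12 periportal genes 3 were called higher and 1 lower in KO. Sdsl rose by 1.74, Cdh1 by 1.15 and Ctsc by 0.84 (adjusted p = 0.00421, 0.0102 and 0.0124), and Hsd17b13 fell by 0.48 (adjusted p = 0.0241). The list medians were -0.61 for pericentral and -0.38 for periportal genes, and 0.001 over all genes tested. Averaged over the pericentral list, KO_1 deviated from the WT mean by -0.02 on the log2 scale, KO_2 by -0.74 and KO_3 by -1.11. Over the periportal list the values were 0.38, -0.14 and -0.52. In KI against WT 0 genes of either list were called.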
